A study of Homo sapiens with 18 samples.

Results

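The CpGs described here were chosen by their methylation level in reduced representation bisulfite sequencing (RRBS), a method that reads the methylation of single cytosines on fragments cut by a restriction enzyme. A CpG was a member when it lay on an autosome, was covered by at least 20 reads in each of 3 cell lines, and was methylated on 35 to 65% of the reads in all 3. Of 953749 CpGs tested, 39636 met the rule, which is 4.16% of the CpGs tested. HCT15 is a colorectal carcinoma line, and DU145 and PC3 are prostate cancer lines. Each line was sequenced once by RRBS, and its DNA was captured once with each of 5 kits (MethylMagnet, MethylCollector, MethylCollector Ultra, MethylCap and MethylMiner) for MBD-seq, giving 15 libraries. No line was treated. DU145 came from another supplier than the other lines and was collected at a later passage, so line, source and passage cannot be told apart. Each kit's only replicates are the 3 lines. A cell line can hold a mixture of cells, and the files do not assign reads to alleles.

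DNA methylation in mammals sits on the cytosine of CpG dinucleotides, and most CpGs are either methylated or unmethylated on nearly all copies. A level near the middle can be reached where one parental allele is methylated and the other is not, as at the control regions of imprinted genes, or where cells of a population differ. Imprinted loci are for that reason the classic place to look for intermediate levels. In MBD-seq, a methyl-CpG binding domain captures fragments with several methylated CpGs, so its depth, the number of captured fragments over a base, is an independent readout that the rule did not use.

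The coverage of autosomal CpGs in the RRBS files summed to between 71444383 (HCT15) and 128307477 (DU145). A read over several CpGs is counted at each of them, so these sums are not numbers of reads. The depth of the MBD-seq libraries summed to between 1570731 and 1363282220 bases. The 3 MethylMiner libraries stood apart: in the 12 libraries of the other kits, depth was highest over CpGs methylated only in the line named by the label, and in none of the 3 MethylMiner libraries was this so. The PC3 file held 0 CpGs on chromosome 22, so no member could lie there. At a coverage of 20 reads, a level of 50% has a Wilson 95% interval of 29.9 to 70.1%, which is wider than the band of the rule and covers counting error only.

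Most members shared a short sequence that the rule did not use. Of the 39636 members, 31749 lay in CCGG and 5989 in TCGA, together 95.2% of the members against 35.7% of the CpGs tested. CCGG is the recognition sequence of MspI, the enzyme on which RRBS is usually built, and TCGA is that of TaqI, which some RRBS protocols add. The enzymes used for these libraries are not given in the sources used here. Both sequences read the same on either strand. CpGs in either sequence are called cut-site CpGs below, and the remaining ones off-site CpGs. Members were 11.9% of the tested CpGs in CCGG, 8.16% of those in TCGA and 0.31% of those in neither sequence, where 1898 of 613210 met the rule. In the other 14 sequence contexts the share ran from 0.13% (GCGA) to 0.72% (CCGA).

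A stretch of the KLF13 promoter and one of the IGF2R promoter are printed because all their members were cut-site CpGs. KLF13 encodes a zinc finger transcription factor, and IGF2R the receptor that clears the growth factor IGF2. Coordinates are hg19, the strand is the forward one, each CG in capitals is a member, and every other letter is in lower case.
KLF13, chr15:31618291-31618590: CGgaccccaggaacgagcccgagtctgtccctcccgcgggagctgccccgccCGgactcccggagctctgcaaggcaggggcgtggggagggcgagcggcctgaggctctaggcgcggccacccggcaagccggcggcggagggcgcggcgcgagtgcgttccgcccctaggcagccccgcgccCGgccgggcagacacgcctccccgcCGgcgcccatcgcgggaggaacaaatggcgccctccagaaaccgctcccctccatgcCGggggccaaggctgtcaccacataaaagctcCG
IGF2R, chr6:160389784-160390083: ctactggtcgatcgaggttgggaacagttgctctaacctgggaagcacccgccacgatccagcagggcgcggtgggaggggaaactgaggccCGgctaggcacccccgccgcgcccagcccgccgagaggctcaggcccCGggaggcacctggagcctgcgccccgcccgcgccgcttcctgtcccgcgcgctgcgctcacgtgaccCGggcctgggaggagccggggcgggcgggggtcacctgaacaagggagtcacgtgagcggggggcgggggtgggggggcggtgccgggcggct
In the KLF13 stretch, 6 of 34 tested CpGs were members, and each lay in ccgg once the base beyond the ends of the stretch is added. The 25 off-site CpGs between them had a mean level of 1.37% in HCT15, 0.86% in DU145 and 0.48% in PC3; none exceeded 7.69% in any line. In the IGF2R stretch, 3 of 18 tested CpGs were members, and the 14 off-site CpGs had mean levels of 1.58%, 0.81% and 0.14%. Members thus stood among unmethylated CpGs of the same stretch.

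The same contrast held across the genome. For each tested CpG, the mean level of the tested off-site CpGs within 100 bp was taken where at least 3 were present. Among CpGs in CCGG whose neighbours were at most 10% methylated in all 3 lines (50050 CpGs), the median level was 51.4% in HCT15, 52.0% in DU145 and 52.0% in PC3. Of these CpGs, 42.96% were members. For TCGA (5528 CpGs), the medians were 52.8%, 53.9% and 53.7%. For off-site CpGs with such neighbours (215337 CpGs), the median was 0.0% in each line. Only 228 of the 50050 CpGs in CCGG were themselves at most 10% methylated in all 3 lines, against 97.3% of the off-site CpGs. The middle 50% of the CCGG levels ran from 40.5 to 62.1% in HCT15, 40.8 to 63.2% in DU145 and 40.5 to 63.6% in PC3. The levels of these CCGG CpGs went together between lines, with a correlation across CpGs of 0.794 between HCT15 and DU145, 0.784 between HCT15 and PC3 and 0.824 between DU145 and PC3. The points share position and base composition, and the value is a description.

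**Figure D1:**
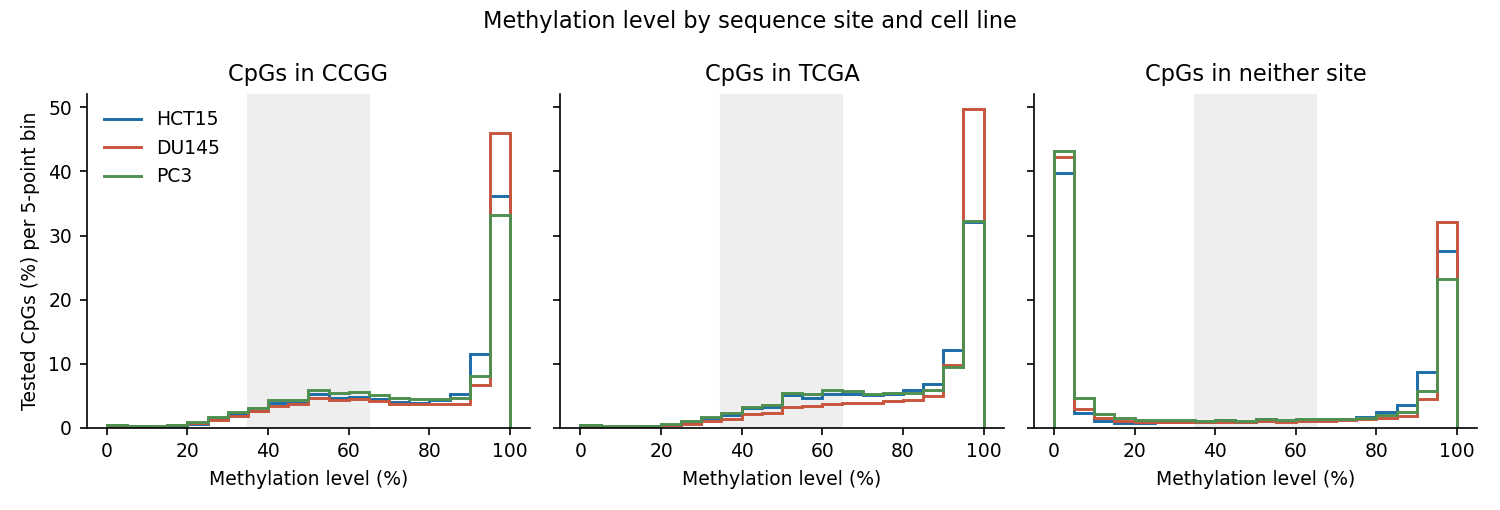
Share of tested CpGs (y axis, %, in bins of 5 points) by methylation level (x axis, %) for CpGs in CCGG, in TCGA and in neither sequence, with 1 line per cell line and the 35 to 65% band shaded. CpGs in neither sequence pile up near 0 and near 100%, while those in CCGG and TCGA have almost none near 0 and a broad rise over the band.

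The level at cut-site CpGs rose with that of their neighbours from about the middle of the scale to the top. In HCT15, the median level of cut-site CpGs was 51.6% where neighbours were below 10% methylated, 61.3% where neighbours were at 20 to 30%, 71.4% at 40 to 50%, 83.3% at 60 to 70% and 96.7% at 90% or more. DU145 gave 52.3%, 61.8%, 70.5%, 82.3% and 98.1% in the same bins, and PC3 52.4%, 61.4%, 70.97%, 81.4% and 97.6%. The 3 lines lay within 2 points of each other in each of these bins. The off-site CpGs followed their neighbours over the whole scale, with medians of 0.0%, 24.2%, 45.8%, 73.1% and 96.97% in HCT15. The 2 classes therefore lay furthest apart at unmethylated DNA and met at methylated DNA.

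**Figure D2:**
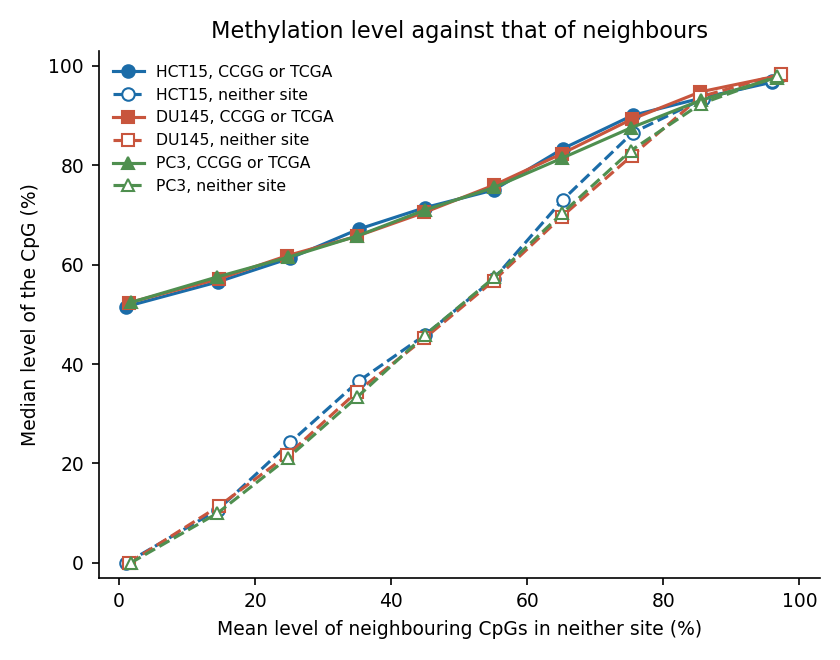
Median methylation level of a CpG (y axis, %) against the mean level of off-site CpGs within 100 bp (x axis, %), in 10 bins per cell line; filled symbols are CpGs in CCGG or TCGA and open symbols CpGs in neither. In all 3 lines the filled symbols start at 51.6 to 52.4% and climb to 96.7 to 98.1%, while the open symbols start at 0.0%.

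Of the 37738 cut-site members, 28331 had enough neighbours, and in 84.1% of these the neighbours were at most 10% methylated in all 3 lines. The median neighbour level was 0.75% in HCT15, 0.88% in DU145 and 0.98% in PC3. Neighbours at 35 to 65% in all 3 lines were found for 56 cut-site members. Around the 776 off-site members with enough neighbours, the median neighbour level was 61.6%, 61.7% and 53.0%. The files give 1 pair of counts per CpG, with no strand and no position in the read, so the part of the cutting in the level of the cut-site CpGs was not tested.

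Clusters were defined as chains of overlapping runs of 5 consecutive members, each run spanning at most 1000 bp. A whole cluster could be longer, as at PHF13 with 2857 bp. There were 1694 clusters with 10882 members, 27.5% of all members, and the median cluster held 6 members over 770 bp. Of the 1694, 1633 (96.4%) had no off-site member, and 1602 touched a promoter. A promoter here is the 1000 bp on either side of any annotated transcript start of a protein-coding or long noncoding gene. This includes starts inside a gene. Promoters held 92.8% of the clustered members and 48.95% of all tested CpGs. They also held 92.5% of the CpGs at most 10% methylated in all 3 lines, so this place is not particular to the clusters. The members made up a median of 15.6% of the tested CpGs inside a cluster. The mean level of the off-site CpGs inside a cluster had a median over clusters of 0.76% in HCT15, 0.90% in DU145 and 1.02% in PC3. This mean was at most 10% in all 3 lines in 1574 clusters. It was between 35 and 65% in all 3 lines in 13.

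The clusters with the most members followed this division. Of the first 25 by number of members, 19 had no off-site member, and in 17 of these the off-site CpGs averaged at most 10% in every line. The PHF13 cluster, at the start of a gene for a histone-binding PHD finger protein (chr1:6672768-6675624), had 19 members among 152 tested CpGs, and its 121 off-site CpGs averaged 1.12%, 1.66% and 1.13%. BCL7A encodes a subunit of the SWI/SNF chromatin remodelling complex. Its cluster had 18 members, with an off-site mean of 0.88%, 0.99% and 1.33%. The clusters at CDK13, a kinase that acts on RNA polymerase II, and KLF13 had 16 members each. In CDK13 the off-site CpGs averaged 0.76%, 1.29% and 0.95%. SPHK1, which makes sphingosine 1-phosphate, had 17 members and an off-site mean of 10.25% in HCT15, above the 2.73% in DU145 and 1.10% in PC3. The 2 exceptions to the low off-site means were SPHK1 and MAFA, a transcription factor of pancreatic beta cells, with 10.13%, 4.70% and 11.93%.

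Of the first 25 clusters, 6 held off-site members. PMF1 (23 off-site members), ZFTA (14), GNAS (15), EPS8L2 (12) and MIR663AHG (13) held mostly off-site members, and ADRM1, which encodes a ubiquitin receptor of the proteasome, held 1. 

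The 1898 off-site members differed from the cut-site members in place and in copy number. Promoters held 24.8% of them and introns 40.3%, against 75.5% and 11.0% of the cut-site members and 56.2% and 20.99% of all off-site CpGs tested. The 50 bp centred on the CpG occurred more than once in GRCh37 for 673 of them (35.5%), against 4.65% of all off-site CpGs tested and 1.402% of the cut-site members. The hexamer TGCCGC, read on both strands and known as the core of the motif bound by ZFP57, a protein that maintains imprints, covered 11 of them (0.58%), against 1.42% of the off-site CpGs tested. Their median level was 51.6% in HCT15, 54.1% in DU145 and 49.6% in PC3. The range of a CpG over the 3 lines had a median of 13.9 points, against 10.0 points over all members, the off-site ones included. The rule itself bounds this range. Median coverage was also lower at the off-site members, at 32 reads in HCT15, 62 in DU145 and 45 in PC3. Over all members it was 42, 73 and 50 reads. The range therefore cannot show that off-site members vary more between lines. Close to the limits, 332 off-site members lay within 1 point inside the band and 352 off-site CpGs within 1 point outside it. Over all members, these numbers were 4500 and 4691, with levels down to 35% inside and up to 34.98% below the limit.

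A line on its own placed many more off-site CpGs in the band. There were 41983 in HCT15 (6.85% of the off-site CpGs tested), 34710 in DU145 (5.66%) and 44676 in PC3 (7.29%). Of these, 4.52%, 5.47% and 4.25% were members. At 83407 off-site CpGs (13.6% of those tested) the level was in the band in 1 line alone, and at 16134 (2.63%) in 2 lines. Cut-site CpGs in the band in all 3 lines (37738, 11.1% of the 340539 tested) were nearly as many as those in 2 (41901, 12.3%).

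Only 12 chains of off-site members, defined in the same way, were found, with 132 members in all, 6.96% of the off-site members. They fell into 2 groups of 6 by coverage. In the first group, the median coverage in DU145 was above 1000 reads per CpG, and the clusters lay in PMF1 (chr1:156186375-156186576), in the noncoding gene MIR663AHG (chr20:26188693-26188897 and chr20:26190005-26190165), in the noncoding gene ENSG00000286016 (chr12:127650489-127650608), in DLG2 (chr11:85195100-85195206) and near LINC00273 (chr16:33964023-33964063). In the second group coverage was between 41 and 307 reads, and the clusters lay in GNAS, ZFTA, EPS8L2, MCTS2, EN2 and SUSD1.

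The cluster with the most members lay in an intron of PMF1, which encodes a subunit of the kinetochore. Its 26 tested off-site CpGs averaged 57.96% ± 6.55 (SD over CpGs) in HCT15, 59.22% ± 4.97 in DU145 and 42.29% ± 6.99 in PC3. All 26 were in the band in HCT15 and DU145, and 23 in PC3. The median coverage was 7397 reads in HCT15, 23182 in DU145 and 9235 in PC3, against 36, 66 and 47 reads over all tested CpGs. The stretch is printed to show how closely the members were packed.
PMF1, chr1:156186325-156186624: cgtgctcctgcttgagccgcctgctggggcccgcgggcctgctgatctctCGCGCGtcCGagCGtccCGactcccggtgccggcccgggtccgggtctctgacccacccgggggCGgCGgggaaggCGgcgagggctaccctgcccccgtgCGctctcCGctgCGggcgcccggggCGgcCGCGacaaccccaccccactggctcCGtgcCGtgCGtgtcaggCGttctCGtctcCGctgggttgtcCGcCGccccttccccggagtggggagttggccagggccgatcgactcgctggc
No member in this stretch lay in CCGG or TCGA, and its cut-site CpGs averaged 77.6%, 78.8% and 68.3%, above the off-site ones.

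The 300 bp around the middle of each of the 12 clusters were aligned to GRCh37. All 6 clusters of the first group aligned at 92.7 to 96.8% identity to an unplaced contig that holds copies of the ribosomal RNA gene repeat, and none of the other 6 did. The PMF1 stretch aligned to it over 298 bp at 96.6% identity. In these 6 clusters PC3 had the lowest level, with means of 39.4 to 48.1%, against 50.97 to 60.7% in HCT15 and 54.8 to 63.8% in DU145. The numbers of ribosomal repeats in these lines, and the reads from them that map to these positions, were not tested, so the levels cannot be assigned to the named genes. Alignment to the contig was not confined to these clusters. Of the 1898 off-site members, 586 (30.9%) aligned to it and not to the repeated sequence of the SUSD1 cluster described below. Of these, 517 lay outside the 12 clusters. Among off-site CpGs with over 5 times the median coverage in any line, 79 of 94 members did so (84.0%), against 324 of 5620 tested (5.77%). Of the 94, 69 lay in the 12 clusters. The share among all off-site CpGs tested was not obtained. Whether the single members matched the ribosomal part of the contig was not tested.

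**Figure D3:**
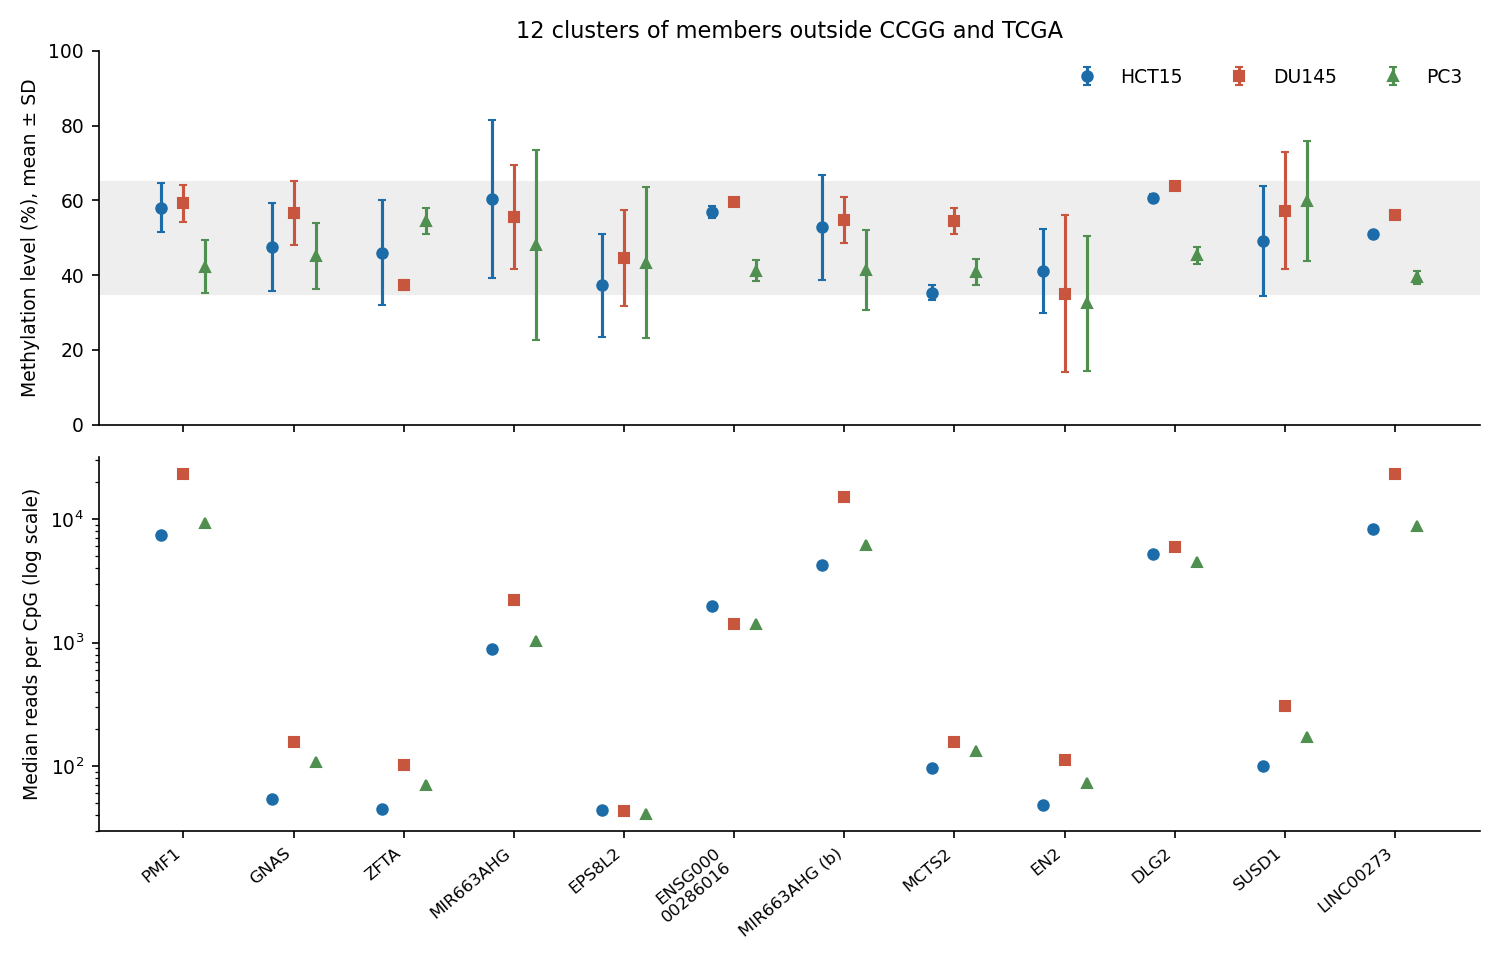
Top, mean methylation level of the tested off-site CpGs of each of the 12 clusters (y axis, %; bars are 1 SD over CpGs) in the 3 lines, with the 35 to 65% band shaded; bottom, their median coverage in reads per CpG (log scale). The 6 clusters with DU145 coverage above 1000 reads have PC3 lowest, and the 6 others have coverage between 41 and 307 reads; the second MIR663AHG cluster is marked (b).

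Both clusters near imprinted genes in the second group lay on chromosome 20. GNAS encodes the alpha subunit of the stimulatory G protein and sits in a locus with several promoters, some of which are methylated on the maternal allele. Its cluster (chr20:57463665-57465165, annotated as promoter) had 15 members among 36 tested off-site CpGs. These averaged 47.5% ± 11.8 in HCT15, 56.6% ± 8.57 in DU145 and 45.0% ± 8.79 in PC3. The levels moved in blocks of neighbouring CpGs, which share fragments and are not independent. In HCT15, 4 CpGs from position 57464375 to position 57464422 lay at 27.3 to 28.6%, while in DU145 they lay at 56.5 to 60.2%. In DU145, 8 CpGs from position 57464811 to position 57464852 lay at 68.4 to 72.8%, above the band, while HCT15 had 48.1 to 50% there. HCT15 also lay above the band, at 66.7 to 69.1%, at 5 CpGs from position 57463752 to position 57463783, where PC3 had 38.3 to 44.1%. The CpGs of GNAS that were not members had thus left the band in 1 line or another, and none was below 27.3% or above 72.8%. The stretch with 3 members outside annotated untranslated regions is printed.
GNAS, chr20:57464995-57465294: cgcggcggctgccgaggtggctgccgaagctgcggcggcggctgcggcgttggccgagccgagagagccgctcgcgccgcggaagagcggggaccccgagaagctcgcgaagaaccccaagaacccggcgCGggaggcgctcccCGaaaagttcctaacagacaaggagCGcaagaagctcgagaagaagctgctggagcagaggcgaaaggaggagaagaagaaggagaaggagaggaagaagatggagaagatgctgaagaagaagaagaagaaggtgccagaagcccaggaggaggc

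MCTS2 is a gene copy inside HM13 that is expressed from the paternal allele, and HM13 encodes an intramembrane peptidase. The cluster at its start (chr20:30135012-30135226) had 10 members among 16 tested off-site CpGs, with a mean of 35.3% ± 2.05 in HCT15, 54.5% ± 3.44 in DU145 and 41.0% ± 3.48 in PC3. Within a line the 16 CpGs were close to each other, from 31.25 to 37.5% in HCT15, 51.3 to 58.9% in DU145 and 36.4 to 48.7% in PC3, and the lines did not overlap except for HCT15 and PC3. The 6 CpGs that were not members fell below 35% in HCT15. Neighbouring CpGs with equal coverage share fragments and are not independent.
MCTS2, chr20:30134882-30135181: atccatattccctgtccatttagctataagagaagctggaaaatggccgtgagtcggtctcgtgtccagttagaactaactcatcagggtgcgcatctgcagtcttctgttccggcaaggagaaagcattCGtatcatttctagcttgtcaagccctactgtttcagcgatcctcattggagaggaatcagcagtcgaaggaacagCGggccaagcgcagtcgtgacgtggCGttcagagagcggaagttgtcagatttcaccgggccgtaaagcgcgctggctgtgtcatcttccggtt
In both clusters the mean of the cut-site CpGs lay above that of the off-site ones, and no cut-site CpG was a member: 10 cut-site CpGs in GNAS averaged 73.5%, 78.0% and 72.3%, and 3 in MCTS2 averaged 69.9%, 78.3% and 73.4%. In GNAS the ranges overlapped, with a lowest cut-site level of 58.3% in HCT15 against a highest off-site level of 69.1%.

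**Figure D4:**
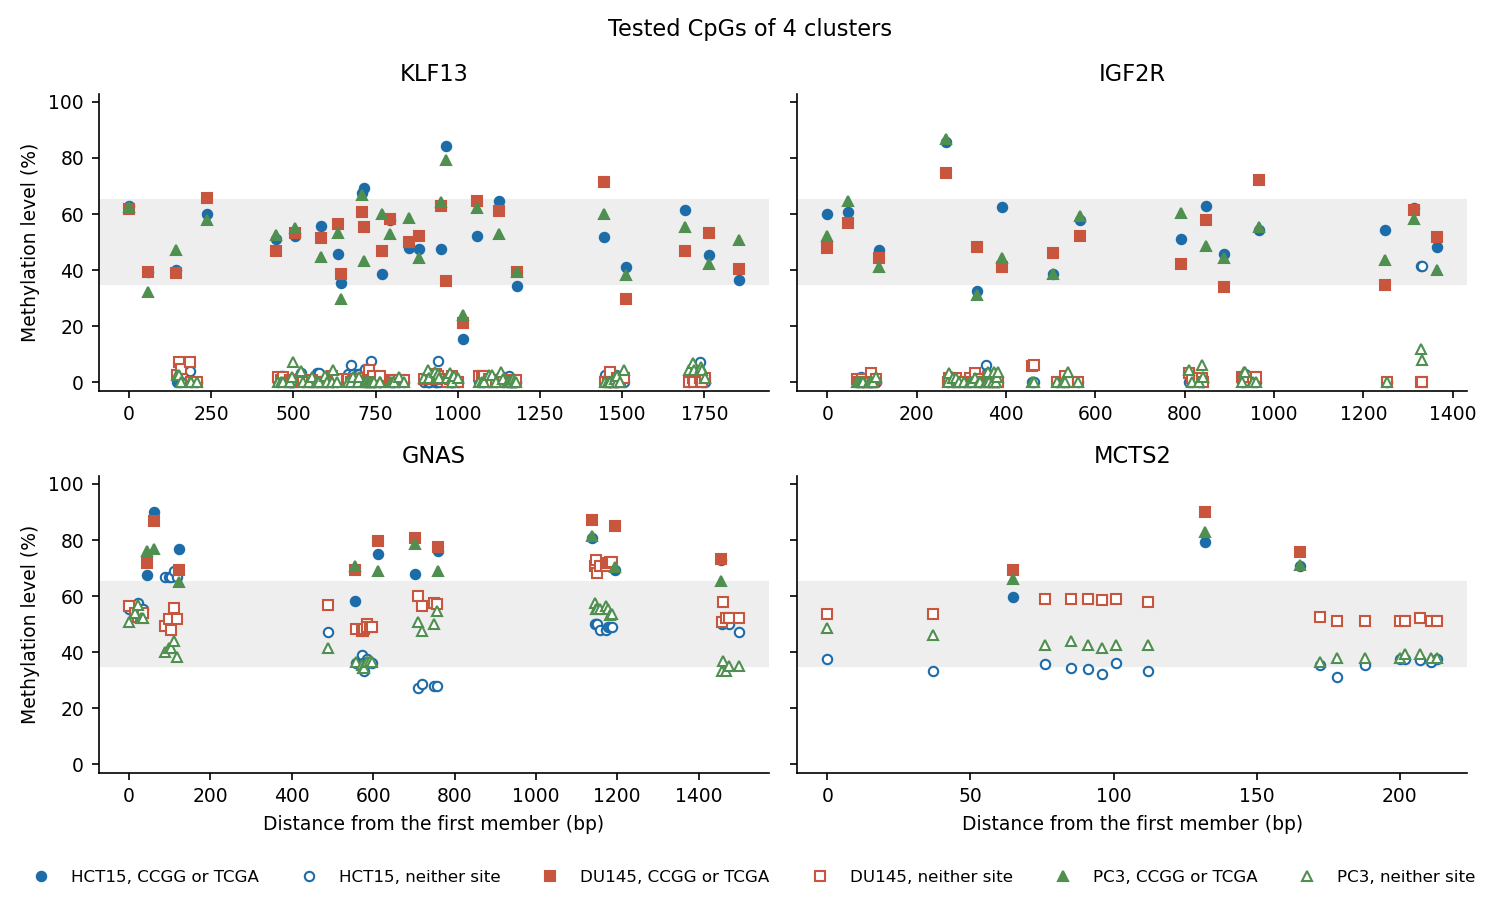
Methylation level (y axis, %) of each tested CpG against its distance from the first member (x axis, bp) in the clusters at KLF13, IGF2R, GNAS and MCTS2; filled symbols are CpGs in CCGG or TCGA, open symbols CpGs in neither, shape and colour the cell line, and the band is shaded. In KLF13 and IGF2R most open symbols lie near 0, with HCT15 values up to 41.4% in IGF2R, and the filled ones scatter around the band, while in GNAS and MCTS2 the open symbols lie near or in the band and the filled ones have the higher mean in each line.

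The other clusters of the second group were not near a listed imprinted gene. ZFTA encodes a zinc finger protein known as a fusion partner in ependymoma. Its exonic cluster (chr11:63530571-63530716) had 14 members of 16 tested off-site CpGs, with means of 46.0% ± 14.0 in HCT15, 37.4% ± 1.30 in DU145 and 54.5% ± 3.48 in PC3. The levels in HCT15 ran from 62.2% at one end to 15.0% in the middle, whereas DU145 stayed between 35.6 and 41.3%. EPS8L2 encodes a protein that regulates actin. Its cluster (chr11:726054-726491) had 12 members of 31, with means of 37.3% ± 13.7, 44.6% ± 12.8 and 43.3% ± 20.2, and off-site CpGs within 1000 bp of it averaged 93.7%, 87.8% and 86.0%. The first 6 members, printed here, lay between 40 and 60% in every line.
EPS8L2, chr11:725898-726097: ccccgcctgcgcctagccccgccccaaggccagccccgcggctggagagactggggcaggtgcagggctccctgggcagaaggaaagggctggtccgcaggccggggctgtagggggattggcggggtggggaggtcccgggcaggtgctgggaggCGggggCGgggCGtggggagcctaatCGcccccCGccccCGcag
EN2, a homeobox gene of the developing midbrain and hindbrain, had 7 members among 53 tested off-site CpGs, and 40 of the 53 were in the band in HCT15, 22 in DU145 and 16 in PC3. The SUSD1 cluster (5 members of 6) lay in a sequence with 187028 alignments at 85% identity or more in GRCh37. The same sequence matched the surroundings of 15.4% of the off-site members at 80% identity or more, against 5.45% of the off-site CpGs tested.

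Across the list of 57 imprinted genes found in the annotation, 150 of 4063 tested CpGs in the genes or within 5000 bp were members (3.69%, against 4.16% of all tested CpGs). At a coverage of at least 50 the order turned, with 57 of 940 near these genes (6.06%) against 4.74% of all tested CpGs. Members of the GNAS and MCTS2 clusters were among the 57, and neighbouring CpGs there share fragments. The share without these clusters was not obtained, so the turn cannot be assigned to imprinted genes in general. Among off-site CpGs, 31 of 2531 were members (1.22%, against 0.31%), of which 15 lay in the GNAS cluster and 10 in the MCTS2 cluster. Of the clusters, 9 lay near genes of the list, and 7 of them had no off-site member and an off-site mean of at most 8.34% in every line. These 7 lay at IGF2R, RB1, BLCAP, TRAPPC9, PHLDA2, KCNQ1 and GRB10. Off-site members were found near 9 genes, some of which overlap: DLGAP2, GNAS, HM13, HYMAI, KCNQ1, KCNQ1OT1, L3MBTL1, PLAGL1 and PPP1R9A.

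Other imprinted genes were at intermediate levels in some lines and not in others. HYMAI and PLAGL1 share a promoter that is methylated on the maternal allele. Near HYMAI, 41 of 43 off-site CpGs were in the band in HCT15, with a mean of 43.4%, and 1 in DU145 and 1 in PC3, with means of 2.50% and 2.34%. KCNQ1OT1 is a noncoding RNA expressed from the paternal allele inside KCNQ1. Of its 45 off-site CpGs, 33 were in the band in HCT15 (mean 54.3%), 1 in DU145 (mean 97.4%) and 20 in PC3 (mean 40.6%). Near GNAS as a whole, 34 of 178 were in the band in HCT15, 83 in DU145 and 79 in PC3. Near NNAT, which lies inside BLCAP, the mean was 54.2%, 55.4% and 54.9% although 0 of 38 CpGs were in the band. H19, a noncoding RNA expressed from the maternal allele, had 3, 3 and 12 of 33 in the band. Of 38 genes with at least 20 tested off-site CpGs, 3 had more than 50% of them in the band in some line, and none had it in all 3.

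The other gene lists held few off-site members, and their shares were not tested against the 0.31% of all off-site CpGs. Except for HOX genes they lay below it, but the germline, protocadherin and HLA counts are too small to be told apart from it. Off-site members were 1 of 667 near germline genes (0.15%), 8 of 5304 near zinc finger genes of chromosome 19 (0.15%), 0 of 404 near the clustered protocadherins and 0 of 16 near HLA genes, which have few tested CpGs. Near HOX genes they were 11 of 1813 (0.61%), with 4 in a cluster at HOXD13 and 2 in one at HOXC11. The lines differed there: the off-site CpGs of the HOXD13 cluster averaged 56.6% in HCT15, 28.6% in DU145 and 29.5% in PC3. By chromosome, members were between 3.69 and 4.48% of the tested CpGs, and the share of off-site members was highest on chromosome 20 (0.50%), which holds GNAS, MCTS2 and MIR663AHG.

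MBD-seq separated the 2 kinds of member. Relative depth is the mean depth over a set of CpGs divided by that over all tested CpGs of the same library. In the 12 libraries of the 4 kits other than MethylMiner, it was 0.095 to 0.197 at cut-site members, and 0.028 to 0.137 at those whose neighbours were at most 10% methylated. Usual coverage leaves out CpGs with over 5 times the median coverage in any line. Among off-site CpGs of usual coverage, those at most 10% methylated in all 3 lines had 0.0378 to 0.178, the 1804 members 0.727 to 1.24, and those at least 90% methylated 1.81 to 2.59. These members lay between the other sets in 12 of 12 libraries, and the 3 ranges did not overlap. The order was not looked at by copy number or by alignment to the contig with the ribosomal repeat, although depth counts uniquely mapped pairs. The 50 bp around the CpG occurred more than once for 35.5% of the off-site members at any coverage. It did so for 7.21% of all CpGs at least 90% methylated and 0.61% of those at most 10%. In MethylMiner the off-site members of usual coverage had 0.689 to 0.861, below both sets in 3 of 3 libraries. With the 94 members of deep coverage included, the off-site members had 1.44 to 7.90 and lay above the methylated off-site CpGs in 5 of the 12 libraries. The range of the cut-site members with unmethylated neighbours overlapped that of the unmethylated set and reached below it.

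**Figure D5:**
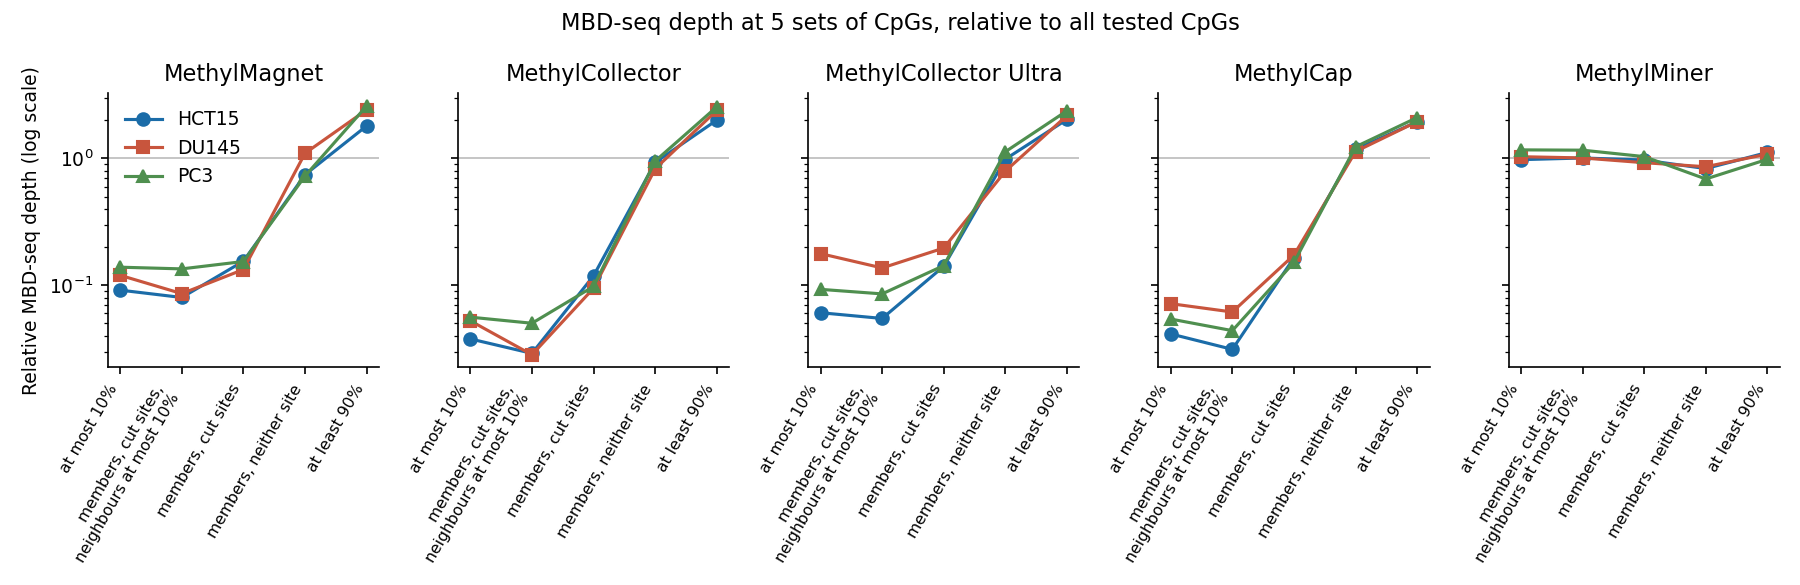
Relative MBD-seq depth (y axis, log scale; 1 is the mean over all tested CpGs) at 5 sets of CpGs, from off-site CpGs at most 10% methylated to off-site CpGs at least 90% methylated (the off-site sets at usual coverage), by kit, with 1 line per cell line. In the first 4 kits the members outside CCGG and TCGA lie between 0.727 and 1.24, and those within between 0.095 and 0.197. The unmethylated set lies between 0.0378 and 0.178, and only the cut-site members with neighbours at most 10% methylated (0.028 to 0.137) lie near it throughout. In MethylMiner all points lie between 0.689 and 1.17, and the off-site members lie below both comparison sets in 3 of 3 libraries.

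The HCT15 library of MethylCap, the deepest of these 12, gives the same order in fragments per CpG. The mean depth was 0.287 at cut-site members, 0.0545 at those with unmethylated neighbours, and, at usual coverage, 0.0721 at unmethylated off-site CpGs, 2.06 at off-site members and 3.395 at methylated off-site CpGs. Whatever the coverage, at least 1 fragment covered 14.0% of the cut-site members, 74.1% of the off-site members, 88.5% of the methylated and 5.02% of the unmethylated off-site CpGs. In MethylMagnet DU145, the library with the least depth, the shares were 0.20%, 2.85%, 3.36% and 0.18%, so that a single member could not be read there.

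Capture depends on the number of CpGs in a fragment, and the order of the sets was looked at within strata of density. With 8 to 15 CpGs within 100 bp on each side, off-site members (1079) had a relative depth of 0.238 to 1.25, between the unmethylated (0.033 to 0.092) and the methylated set (0.678 to 2.31) of the same library in 12 of 12 libraries. With 16 or more (338 members) it was 1.57 to 4.89, again between in 12 of 12. With 7 or fewer (387 members) it was between in 8 of 12 and was 0 in 2 DU145 libraries.

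At single clusters the depth was low. In the GNAS cluster, the mean depth over its 15 members in HCT15 was 0.0667 with MethylMagnet, 0.733 with MethylCollector, 0 with MethylCollector Ultra and 1.73 with MethylCap. In PC3 it was 2.00, 0, 0.733 and 0.867, and in DU145 it was 0 with all 4 kits. Depth was thus found in 6 of 12 libraries for GNAS, and also in 6 of 12 for MCTS2, 7 for EN2, 7 for EPS8L2, 9 for ZFTA and 1 for SUSD1. At the middle member of the GNAS cluster, the highest depth was 4 fragments, in MethylMagnet PC3, with an exact Poisson 95% interval of 1.09 to 10.2, and a depth of 0 has an upper bound of 3.69. These depths cannot show a difference between lines at GNAS. The PMF1 cluster had depth in 12 of 12 libraries, at 10.4 to 540 times the mean of all tested CpGs, and the MIR663AHG cluster at chr20:26188693-26188897 at 4.15 to 56.9 times. The 540 is a mean depth of 8.17 in MethylMagnet DU145, where all tested CpGs averaged 0.0151. The rest of the first group had depth in fewer libraries. Depth was found in 6 of 12 libraries for DLG2 (at most 4.36 times), 7 for LINC00273 (23.5) and 8 for ENSG00000286016 (29.4). The second MIR663AHG cluster had it in 10 (79.3), and in each of these the lowest value was 0. MethylMiner also had 12.8 to 25.1 times the mean at PMF1.

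The kits differed in the depth at members relative to the methylated and the unmethylated sets. The log2 ratio of members to CpGs at least 90% methylated averaged -2.24 ± 0.45 (SD, n = 3 lines) in MethylMagnet, -2.97 ± 0.35 in MethylCollector, -2.90 ± 0.30 in MethylCollector Ultra, -2.97 ± 0.14 in MethylCap and -0.04 ± 0.16 in MethylMiner. Differences between kits made up 95.4% of the total sum of squares (exact permutation test of kits within lines, one-sided, p = 0.001806, the smallest possible being 6.944e-05). Without MethylMiner it was 56.8% (exact permutation test, p = 0.04514). The log2 ratio of members to CpGs at most 10% methylated was 1.59 ± 0.50, 2.21 ± 0.41, 1.23 ± 0.56, 2.03 ± 0.34 and -0.11 ± 0.10 in the same order of kits, with 85.7% of the sum of squares between kits (exact permutation test, p = 0.00375). Without MethylMiner it was 51% (exact permutation test, p = 0.09375), which does not pass 0.05.

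Most of these members are cut-site CpGs. With off-site CpGs of usual coverage in all sets, the log2 ratio to the methylated set was -1.42 ± 0.37, -1.35 ± 0.22, -1.19 ± 0.23, -0.76 ± 0.03 and -0.42 ± 0.09 in the same order (share between kits 81.4%, exact permutation test, p = 0.004444). To the unmethylated set it was 2.87 ± 0.43, 4.23 ± 0.34, 3.26 ± 0.98, 4.44 ± 0.43 and -0.42 ± 0.30 (share 93.8%, exact permutation test, p = 0.002708). Without MethylMiner the shares were 62.4 and 64.2%, with exact permutation p of 0.07118 and 0.06771, so that differences among the other 4 kits at off-site members were not shown beyond the spread between lines.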

How the data were processed

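The RRBS files deposited by the authors hold read counts at each CpG (methylated, and in total), summed over strands, and their lowest coverage was 6. The MBD-seq files deposited by the authors hold a signal, the coverage of each base by uniquely mapped pairs without duplicates, with no scaling for library size. Per the labels, reads were mapped to hg19, for MBD-seq with Bowtie. The RRBS aligner is not given in the sources used here.

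CpGs of chromosomes 1 to 22 on a CG of GRCh37 were joined over the 3 RRBS files, and the MBD depth was read at the cytosine. Genes were taken from GENCODE 44 on the same build, with gene IDs where no symbol is given, and no repeat annotation was used. Windows of 300 bp were aligned with blastn 2.17.0 at 85% identity (80% for the repeat of SUSD1) over at least 50% of the window. Kit effects are the share of the sum of squares between kits, tested by permuting kits within lines (14400 relabellings), and checked without that block in 100000 resamples. The cluster search and the test were tested on simulated data. The software was pysam 0.24.0, scipy 1.17.1, pandas 2.3.3 and numpy 2.4.6 under Python 3.11.15.

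The members, gene lists and tests were chosen with earlier results of these data known. The split into cut-site and off-site CpGs, the clusters of off-site members and the alignments were added after seeing the data. Named clusters are the first 25 by number of members, those within 5000 bp of a listed imprinted gene and the first 2 of every other list; off-site clusters were named after their values were seen. Alternatives changed the coverage, the band, the cluster definition, the comparison sets, the density and the libraries used.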

Additional observations from a re-analysis of the deposited data

Results flagged for a closer look

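The kits differed in depth at the members relative to both comparison sets, with shares of the sum of squares between kits of 95.4% against the methylated and 85.7% against the unmethylated set. With off-site CpGs of usual coverage the shares were 81.4 and 93.8%. In each case MethylMiner lay apart from the other 4 kits, and its part is given by the values without it in the report.

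Chromosome 22 lies outside the comparisons because the PC3 file has no CpG there. In HCT15 and DU145, 1762 of 34819 CpGs covered by at least 20 reads in both lines were at 35 to 65% in both (5.06%), against 5.61% on chromosomes 1 to 21. Of the 1762, 88.5% lay in CCGG or TCGA, against 87.1% on the other chromosomes. The CpGs of chromosomes 1 to 21 also had to be present in the PC3 data, and those of chromosome 22 did not.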

How the results depend on the processing

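Against the methylated set, the share between kits lay between 56.8 and 98.5% over 13 alternatives and passed 0.05 in 11. It did not pass without MethylMiner at off-site CpGs of usual coverage (62.4%). Against the unmethylated set, it lay between 51 and 96.2% and did not pass in 4 of 13, among them without MethylMiner (51%), and without MethylMiner at off-site CpGs (64.2%). Leaving out 1 line gave 93.8 to 98.5% and 87.8 to 90.2%; the first did not pass without DU145 (97.6%, exact permutation p = 0.05), the second without HCT15 (87.8%, exact p = 0.075) or PC3 (89.2%, exact p = 0.05833). Permuting kits over all libraries, with no replicate block, left the shares at 95.4% (permutation p = 0.00079) and 85.7% (p = 0.00133); lines pair the libraries because each kit was applied to the same 3 lines.

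The number of members was 10516 at a coverage of at least 50, 18844 in a band of 40 to 60%, 63105 in one of 30 to 70%, 1898 off the cut sites, 1225 off the cut sites with 50 bp found once in the reference, and 59336 to 71762 with a line left out (59336 without PC3, 67159 without DU145, 71762 without HCT15). The number of clusters was 148, 297, 3594 and 12 under the first 4 of these, 44 with at least 10 members within 1000 bp, 809 within 500 bp, and 2834 to 3447 with a line left out (3447 without HCT15, 2834 without DU145, 2929 without PC3). Near imprinted genes, the share of tested CpGs that were members was 6.06% (57 of 940) at a coverage of at least 50. Over all tested CpGs it was then 4.74%. The band of 40 to 60% gave 1.77% near these genes (all tested CpGs 1.98%), and off-site CpGs gave 1.22% (0.31%). The other alternatives kept the counts within 1.5 times. With a line left out, a CpG still had to be present in the RRBS data of that line. The counts without PC3 therefore hold no CpG of chromosome 22. Each count follows from the criterion changed; causes were not tested. The restriction-sequence alternatives were chosen after seeing the data. Single CpGs at 20 reads cannot be placed inside the band with certainty, and MBD depth at the GNAS cluster is too low to compare lines.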
